A study of Saccharomyces cerevisiae with 5 samples.

Results

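Array signals for messenger and small RNAs were compared between yeast given a trace of phosphate, 0.01 mM, and yeast kept at 0 mM. The pair was 2 of the 5 arrays of a phosphate dose series. The array at 0.01 mM was set against the array at 0 mM, and probe sets of 1 gene were kept if their signal reached the background level on at least 1 of the 2 arrays. Of 6504 probe sets that name 1 gene, 5093 were kept and 1411 were below background on both arrays, which left 4864 of 5656 genes. The cells at 0.01 mM and at 0 mM were budding yeast of the W303 background with PHO4-MYC::TRP1, a MYC-tagged PHO4 marked with TRP1. Every culture of the series, also those at 0.1, 1 and 10 mM, carried this allele and spent 3 h in PNB medium without phosphate before 80 min at its dose. There was 1 array per dose, so no difference below has a replicate error or a test. The labels give neither a shared growth day for the cultures nor the number of clones of the tagged strain.

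Yeast senses scarce phosphate through the cyclin-dependent kinase Pho80-Pho85 and its inhibitor Pho81. When phosphate is short the kinase is inhibited, and Pho4 enters the nucleus and turns on genes for phosphate uptake and release. Growth is governed by the TOR and protein kinase A pathways. These act on ribosomal protein genes, ribosome assembly genes and RNA polymerases I and III, and hold back stress genes under Msn2 and Msn4. The pair of doses therefore asks how each of these programmes stood when a trace of phosphate was given back, a dose at which the Pho4 targets were still high.

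Signals are linear intensities from the MAS5 algorithm, and the background level was a signal of 11.4, the 40th percentile over all 5 arrays. Values below it were raised to it before taking log2, so a gene below background on 1 array has a bound, written as "at least". The median gene had a log2 difference of -0.26, 1.20-fold lower at 0.01 mM than at 0 mM. Each difference below is relative to this median gene, as log2 of 0.01 mM over 0 mM minus that median, and "2-fold" means a relative difference of at least 1 on the log2 scale. Signals themselves are given as deposited.

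Genes of the ribosome itself and of transfer RNA stood far above the rest at 0.01 mM, while genes that build the ribosome were slightly lower and Pho4 targets lay at the median gene. In all, 184 of the 4864 genes had a value at least 2-fold above the median gene at 0.01 mM (3.78%) and 127 a value at least 2-fold below it (2.61%). The lower count depended on how dim signals were treated: it was 51 with a pseudocount in place of the floor and 67 with background at the 60th percentile. In the signals as deposited, without centring on the median gene, the split turned round to 107 higher (2.20%) and 349 lower (7.18%). In bulk RNA such as this, fewer cells of a kind and less RNA per cell cannot be told apart. Of the 184 genes higher at 0.01 mM, 66 encode cytosolic ribosomal proteins, 40 are tRNA genes and 6 are small nucleolar RNA (snoRNA) genes, 60.9% of the total. None of the 127 lower genes belongs to these 3 classes. Without the 3 classes, 72 of 4683 genes stood 2-fold or more above the median gene and 127 below it. Of the 4456 genes above background on both arrays, 161 were higher (3.61%) and 116 lower (2.60%) by this measure.

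The pair of arrays at ample phosphate, 10 mM against 1 mM, gives a yardstick of size that shares no array with the pair of interest, though it is not a replicate. There, 13 of 4550 genes (0.286%) were at least 2-fold higher and 60 (1.32%) lower at 10 mM. The SD of relative differences over genes was 0.56 for 0.01 mM against 0 mM and 0.34 for 10 mM against 1 mM. Probe sets of the same gene give a second yardstick: in the 117 genes with exactly 2 kept probe sets the relative differences parted by an SD of 0.60 (log2), with a median gap of 0.35, and 10 genes parted by more than 1.

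**Figure D1:**
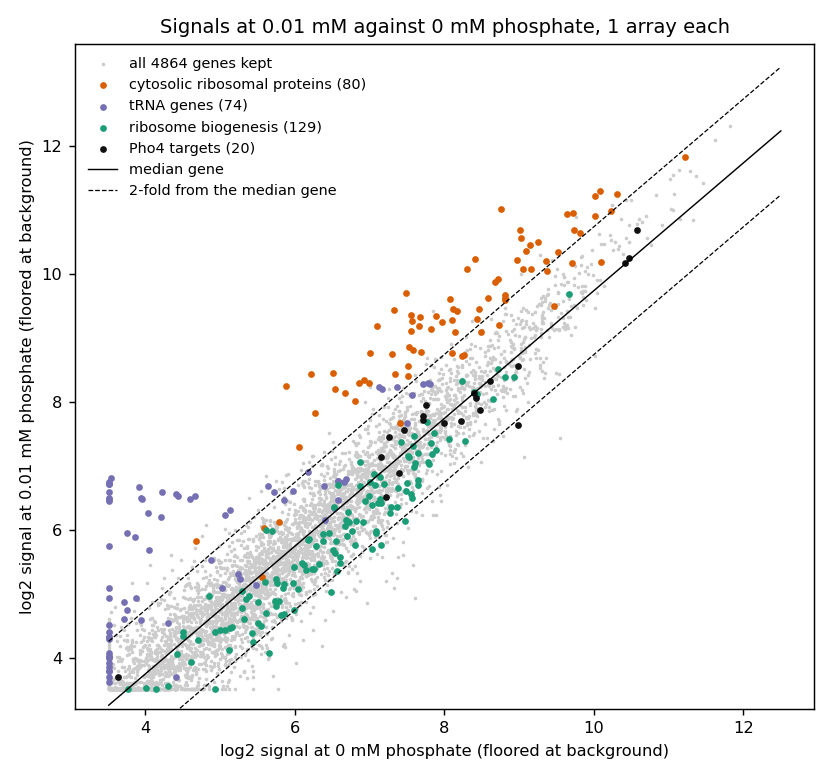
Log2 signal at 0.01 mM (vertical) against 0 mM (horizontal), 1 array each, with values below background raised to it; grey points are the 4864 genes, coloured points the members of 4 lists, the solid line the median gene and the dashed lines a 2-fold relative difference. Of the 80 ribosomal protein genes 66 lie above the upper dashed line, and the 20 Pho4 targets lie along the median gene except for PHO89, below the lower line.

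The arrays at 0.01 mM and 0 mM also differed in RNA quality and in their spiked controls, values that belong beside every result here. The 3′ probe set of a control transcript over its 5′ probe set, a ratio that is higher where RNA is degraded or copied less fully, was 3.00 at 0.01 mM and 2.37 at 0 mM for ACT1 (actin), and 4.52 at 0.01 mM and 2.63 at 0 mM for TBP (the TATA-binding protein). For the spiked bacterial transcripts it was 9.98 at 0.01 mM against 5.33 at 0 mM for DapX, 12.8 at 0.01 mM against 6.96 at 0 mM for ThrX, 6.72 at 0.01 mM against 5.43 at 0 mM for PheX and 7.99 at 0.01 mM against 7.52 at 0 mM for LysX. The 12 poly-A spike-in probe sets, added as RNA before labelling, had a geometric mean signal of 72.3 at 0.01 mM and 243 at 0 mM, 3.37-fold lower, whereas the 9 hybridisation controls had a median log2 difference of -0.28, close to the median gene. The poly-A mean was lower still at the other doses, 38.9, 27.6 and 23.4 at 0.1, 1 and 10 mM, so it was highest on the array at 0 mM. Set against the median poly-A spike-in, 4840 of the 4864 genes (99.5%) would be higher at 0.01 mM. All directions below are therefore relative to other yeast genes and not amounts per cell. The part of RNA quality and of the spike-ins in the results was not tested.

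All 80 cytosolic ribosomal protein genes on probe sets of their own were kept, out of 137 in the list, and their median relative difference was 1.47, or 2.78-fold higher at 0.01 mM. At least 2-fold higher were 66 of the 80 (3.78% over all genes), 0 were at least 2-fold lower, and 79 lay above the median gene. Their signals at 0.01 mM ran from 38.5 to 3639 with a median of 653, and at 0 mM from 20.3 to 2386 with a median of 286. The 47 proteins of the large subunit had a median of 1.49 and the 33 of the small subunit 1.47, and 39 and 27 of them were at least 2-fold higher. In the ranking of the 4456 genes above background on both arrays, ribosomal protein genes took 33 of the 50 highest places and 52 of the highest 100.

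The small-subunit gene RPS9A, whose protein helps to keep decoding accurate, had a signal of 304 at 0.01 mM and 59.0 at 0 mM, a relative difference of 2.63 or 6.17-fold. RPS22A, for another small-subunit protein, had 2066 at 0.01 mM and 434 at 0 mM (2.51). RPS26B, at the mRNA exit channel, had 348 at 0.01 mM and 74.6 at 0 mM (2.48). These 3 genes spanned dim and bright signals. They were named for being among the genes farthest above the median gene, so their similar factors follow from that choice. Over all 80 ribosomal protein genes the relative difference ran from -0.04 to 2.63. In the large subunit RPL31B, beside the exit of the peptide tunnel, had 833 at 0.01 mM and 180 at 0 mM (2.47, mean of 3 probe sets), and RPL28 had 692 at 0.01 mM and 161 at 0 mM (2.36). RPS10A, RPL29 and RPL24A followed at 2.33, 2.09 and 2.05.

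A few ribosomal protein genes stood near the median gene, and they are named here after their values were seen. RPS14B, whose mRNA is known to be repressed by its own protein, had 38.5 at 0.01 mM and 47.4 at 0 mM (-0.04). RPL15B had 722 at 0.01 mM and 710 at 0 mM (0.28), RPL37B 1172 at 0.01 mM and 1094 at 0 mM (0.36), RPL13A 203 at 0.01 mM and 171 at 0 mM (0.51) and RPL22B 69.4 at 0.01 mM and 55.5 at 0 mM (0.58). Of these, RPL15B had the unusual course of a lower signal at ample phosphate, 119, 258 and 208 at 0.1, 1 and 10 mM, whereas RPL37B, RPL13A, RPL22B and RPS14B were all higher there than at 0.01 mM. ASC1, the ribosome-associated scaffold protein kept outside the list, had 690 at 0.01 mM and 231 at 0 mM (1.84), also named after its value was seen. Many ribosomal proteins are made from a pair of nearly identical genes, so how a signal divides between the copies is uncertain.

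Seen along the doses, 0.01 mM lay partway. Over the 80 genes the median signal was 286, 653, 1317, 1444 and 1145 at 0, 0.01, 0.1, 1 and 10 mM. With the difference from 0 mM taken relative to the median gene, the list's median was 1.47, 2.50, 2.66 and 2.37 for 0.01, 0.1, 1 and 10 mM. These 4 differences share the array at 0 mM.

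**Figure D2:**
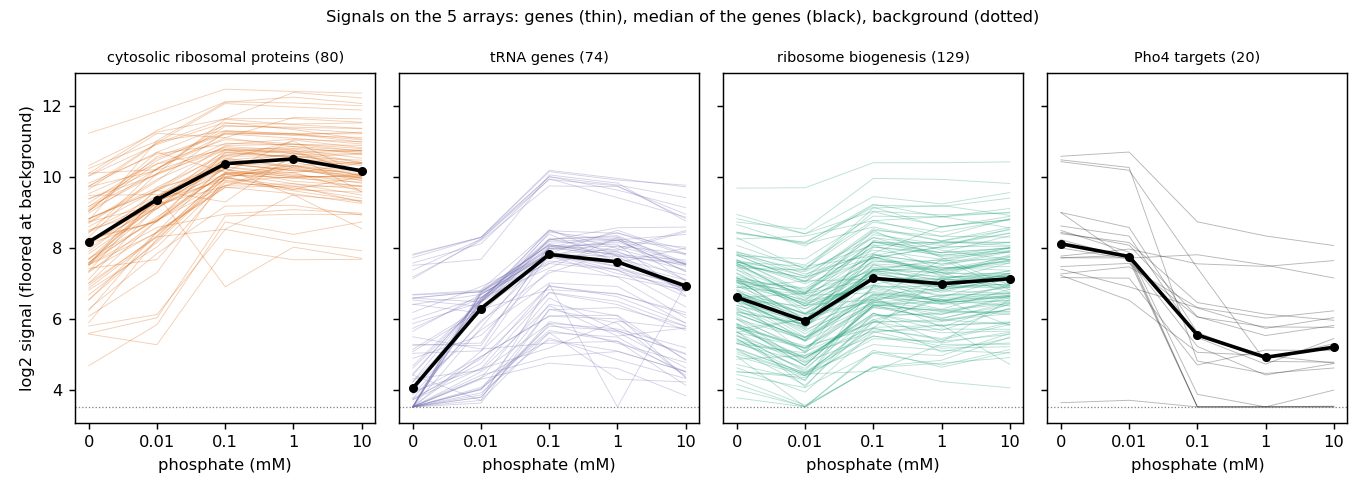
Log2 signal, raised to background where lower, on the 5 arrays from 0 to 10 mM phosphate (1 array per dose); thin lines are genes, black lines the median of the list's genes and dotted lines the background. At 0.01 mM the median of the ribosomal protein genes is above that at 0 mM and that of the biogenesis genes below it, while most Pho4 targets have a lower signal from 0.1 mM on.

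Transfer RNA genes, which RNA polymerase III transcribes, were the class with the farthest single values. Whether signals of tRNA genes, and of the other small RNA genes below, follow the amounts of the mature RNAs was not tested. Of 299 tRNA genes annotated in RefSeq, 91 had a probe set of their own, 74 were kept and 17 were below background on both arrays. Among the 74, 49 were above background on both arrays, 25 at 0.01 mM only and 0 at 0 mM only. The median relative difference was 1.10 with those 25 genes at their bound, 40 were at least 2-fold higher and 0 lower. A gene that passed only through the 0.01 mM array had to be higher there, so the 49 measured on both are the fairer description: their median was 1.13, 25 were at least 2-fold higher (3.61% of all genes measured on both), and 43 had the higher deposited signal at 0.01 mM. Their signals at 0.01 mM ran from 13.0 to 314 with a median of 89.4, and at 0 mM from 11.6 to 225 with a median of 35.2.

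YNCK0019W had a signal of 112.5 at 0.01 mM and 11.6 at 0 mM, 11.6-fold higher and the largest relative difference among genes above background on both arrays. TGA1 had 102 at 0.01 mM and 15.1 at 0 mM, 8.06-fold. YNCD0019C (90.3 at 0.01 mM and 15.4 at 0 mM), YNCD0006W (89.3 at 0.01 mM and 15.6 at 0 mM), YNCL0002C (96.2 at 0.01 mM and 18.8 at 0 mM), YNCG0028W (77.0 at 0.01 mM and 16.4 at 0 mM), YNCP0022W (61.7 at 0.01 mM and 13.5 at 0 mM) and YNCM0009C (94.5 at 0.01 mM and 21.2 at 0 mM) make up the rest of the 8 tRNA genes among the 12 genes farthest above the median gene. All 8 were near background at 0 mM and well above it at 0.01 mM, so their size depends on the background level. With background at the 60th percentile the relative difference was 1.95 for YNCK0019W, 1.80 for TGA1 and between 1.08 and 1.72 for the other 6, and with a pseudocount in place of the floor it was 2.64 for YNCK0019W and 2.31 for TGA1. Below background at 0 mM, YNCD0004W was at least 11.3-fold higher (107.8 at 0.01 mM and 6.94 at 0 mM), YNCK0008W at least 11.1-fold, YNCJ0005C at least 11.0-fold and YNCO0029C at least 10.0-fold. At the other end SUF5, named after its value was seen, had 13.0 at 0.01 mM and 21.3 at 0 mM (-0.46).

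The tRNA genes differed among themselves, also between lengths of the annotated gene, a property the choice of genes did not use. Among the genes above background on both arrays, the 11 of 82 bp had a median relative difference of 2.34, from 0.91 to 2.82, with 10 at least 2-fold higher. The 4 genes of 73 bp had a median of 2.73, the 3 of 74 bp 0.50, the 18 of 72 bp 0.98 and the 12 of 71 bp 0.44. Those of 72 bp ran from -0.46 to 1.43 and those of 74 bp from -0.09 to 1.30, so the classes overlap and have no order by length. Signals of the genes of 71 bp ran from 71.4 to 120 at 0.01 mM and from 52.9 to 103 at 0 mM, ranges that overlap. Copies of a tRNA share their sequence as well as their length: of the 92 probe sets for tRNA genes 75 carry the Affymetrix suffix for sequence families and 3 the plain suffix. These genes are therefore far fewer independent measurements than their number. Over the 74 genes the relative median against 0 mM was 1.10, 2.83, 2.70 and 2.05 at 0.01, 0.1, 1 and 10 mM.

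Other RNAs made by RNA polymerase III were looked at after these values were seen. RDN5-1, for the 5S RNA of the large subunit, had 1897 at 0.01 mM and 867 at 0 mM (1.39). RPR1, the RNA of ribonuclease P that trims tRNA ends, had 59.7 at 0.01 mM and 27.1 at 0 mM (1.40), and RDN5-3, a second 5S probe set, 104.0 at 0.01 mM and 93.2 at 0 mM (0.42). Genes of the polymerases lay on both sides of the median gene. RPO31, the largest subunit of polymerase III, had 40.3 at 0.01 mM and 105 at 0 mM (-1.12). Among 28 genes for RNA polymerases I and III the median was -0.29, 10 lay above the median gene, 0 were at least 2-fold higher and RPO31 was the 1 at least 2-fold lower. RPA190, the largest subunit of polymerase I, had -0.96 with 1 of its probe sets below background at 0.01 mM, but -0.19 without the background filter on probe sets. RPA12 had 70.7 at 0.01 mM and 150 at 0 mM (-0.83), and RPB10, shared by all 3 polymerases, had 451 at 0.01 mM and 315 at 0 mM (0.78).

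The snoRNAs guide chemical modification and cleavage of ribosomal RNA. Of 57 on the array 27 were kept and 30 were below background on both arrays. Their median was 0.70, 6 were at least 2-fold higher (3.78% over all genes), 0 lower, and 26 lay above the median gene. Of the 27, 4 were above background at 0.01 mM only and so had to be higher there. The 23 measured on both arrays had a median of 0.70, and 5 were at least 2-fold higher (3.61% of all genes measured on both). Without a filter the list's median was 0.15. SNR50 had 26.3 at 0.01 mM and 11.7 at 0 mM (1.43), SNR9 had 30.0 at 0.01 mM and 15.1 at 0 mM (1.25), and SNR128 (U14, needed for 18S rRNA processing) had 106.9 at 0.01 mM and 56.8 at 0 mM (1.17). SNR71 was above background at 0.01 mM only, 23.0 at 0.01 mM against 7.35 at 0 mM, and at least 2.40-fold higher.

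Protein factors that assemble the ribosome lay on the other side of the median gene. Of 129 biogenesis genes kept, 111 lay below the median gene, 0 were at least 2-fold higher and 6 at least 2-fold lower (2.61% over all genes), with a median of -0.38 or 1.30-fold lower at 0.01 mM. As deposited, 122 of the 129 had the lower signal at 0.01 mM. MPP10, which holds together a core complex of the small-subunit processome, had 16.9 at 0.01 mM and 50.4 at 0 mM (-1.32). With background at the 60th percentile MPP10 had -0.37. Its partner IMP3 had 32.8 at 0.01 mM and 89.3 at 0 mM (-1.19), ENP1, for export of the 40S precursor, 54.3 at 0.01 mM and 142 at 0 mM (-1.13), and the helicase gene DBP3 52.0 at 0.01 mM and 131 at 0 mM (-1.08). RRP14 had 70.5 at 0.01 mM and 179 at 0 mM (-1.08), and RRP36 was below background at 0.01 mM, 7.41 at 0.01 mM against 30.7 at 0 mM, and at least 2.24-fold lower. DBP3 and RRP14 were named after their values were seen.

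Biogenesis genes thus lay 1.30-fold below the median gene at 0.01 mM while ribosomal protein genes lay 2.78-fold above it, although at 0.1, 1 and 10 mM both lists were above the median gene. Relative to 0 mM the biogenesis median was 0.84, 0.78 and 0.86 at 0.1, 1 and 10 mM. MPP10 had 71.3, 40.4 and 93.6 there, and IMP3 186, 117 and 154.

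**Figure D3:**
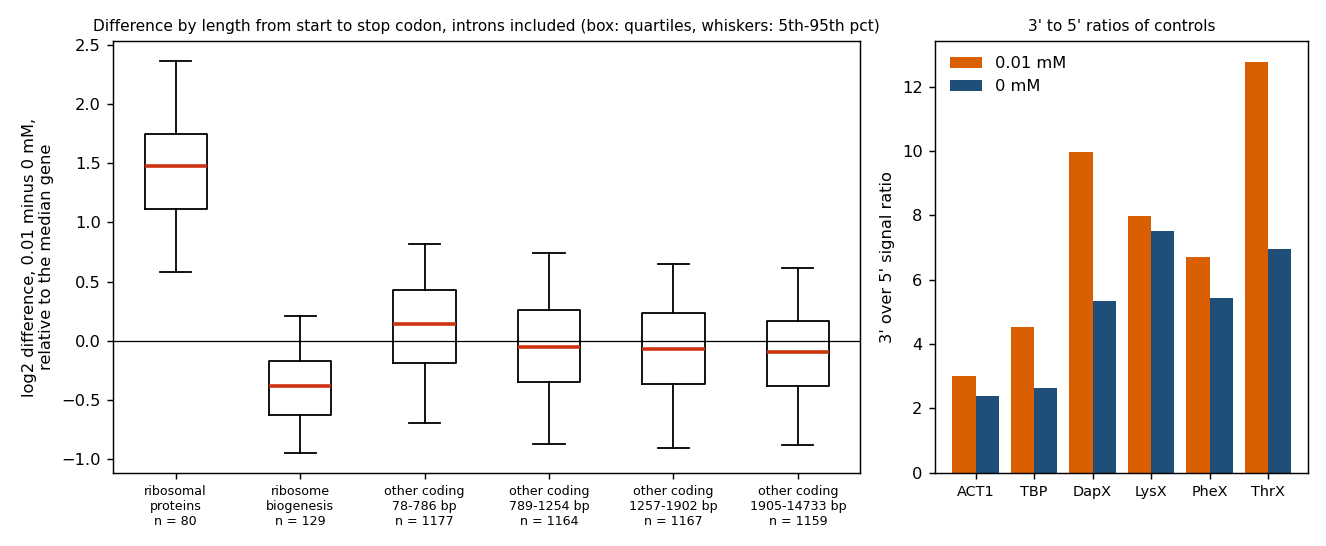
Left, relative log2 difference of 0.01 mM over 0 mM for ribosomal protein genes, biogenesis genes and all other coding genes in 4 classes of length, introns included, with like numbers of genes (biogenesis genes are also in these; box for quartiles, whiskers for the 5th to 95th percentile, red for the median). Right, 3′ over 5′ signal ratio of 6 controls at 0.01 mM (left bars) and 0 mM (right bars), 1 array each. The medians of the 4 classes lie between 0.14 and -0.10, against 1.47 for ribosomal protein genes, and all 6 ratios are higher at 0.01 mM.

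Length moved weakly with the difference, in the direction of the 3′ to 5′ ratios. Lengths are those of the annotated gene without UTRs, introns included, so they overstate the coding length of genes with introns, many ribosomal protein genes among them. Among 4667 coding genes other than ribosomal protein genes, split by length into 4 classes of like size, the shortest class (78 to 786 bp) had a median of 0.14, and the longer ones had -0.05, -0.07 and -0.10. Ribosomal protein genes had a median length of 741.5 bp and a median difference of 1.47. Mitochondrial ribosomal proteins, with a median length of 690 bp, had a median of 0.21, and 1 of 76 was at least 2-fold higher (MRPL51, 225 at 0.01 mM and 131 at 0 mM, 1.03). As deposited their median was -0.05, so the sign of this list turned with centring. Biogenesis genes had a median length of 1542 bp and a median difference of -0.38. The part of length in these differences was not tested.

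Genes that use the ribosome lay closer to the median gene than the ribosomal protein genes. The 33 translation factor genes kept had a median of -0.23, 20 of them below the median gene, with 0 at least 2-fold higher and 1 lower, SUP35 (translation termination factor eRF3), with 36.8 at 0.01 mM and 117 at 0 mM (-1.41). HYP2, for the elongation factor eIF5A, had 2297 at 0.01 mM and 1383 at 0 mM (0.99), and the eIF4G gene TIF4631 had 19.2 at 0.01 mM and 41.6 at 0 mM (-0.86). The 21 aminoacyl-tRNA synthetase genes, which charge tRNAs, had a median of 0.01 and 0 past 2-fold either way, from TYS1 at -0.77 (55.1 at 0.01 mM and 112 at 0 mM) to FRS1 at 0.56 (682 at 0.01 mM and 554 at 0 mM). At 0.1 mM the same lists had medians of 0.77 and 0.86 relative to 0 mM.

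**Figure D4:**
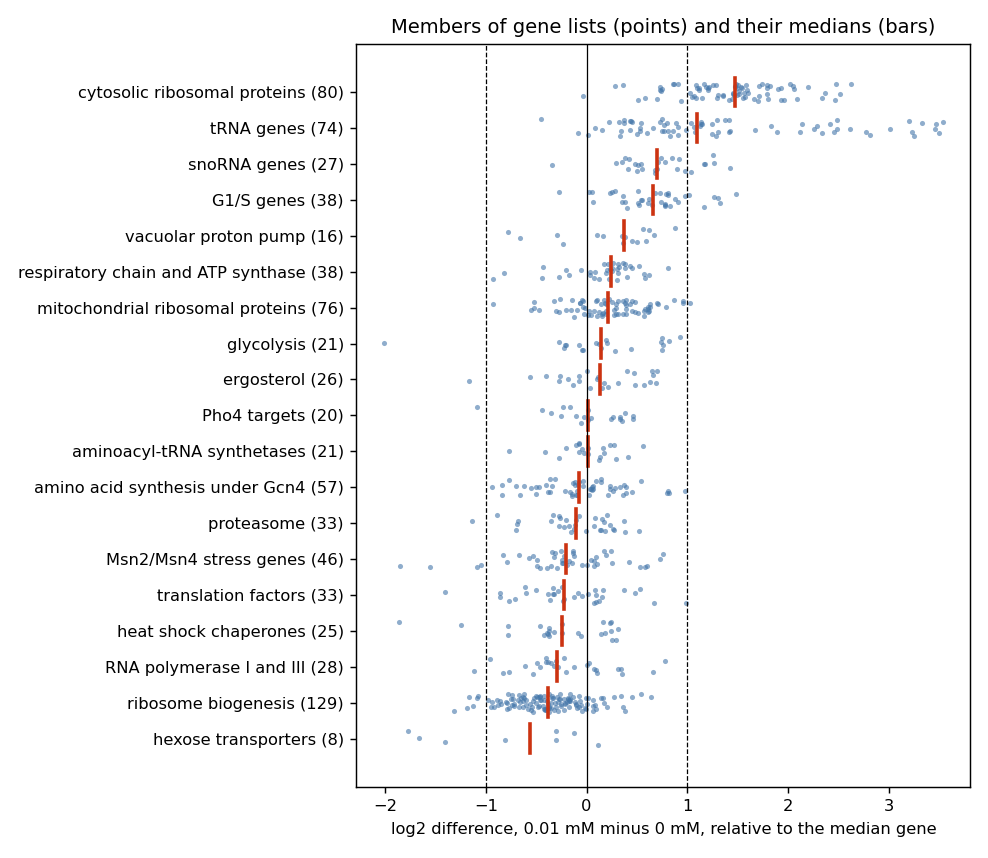
Relative log2 difference of 0.01 mM over 0 mM for members of 19 gene lists (points, vertical scatter for display; number of genes in brackets) with the median of each list (red bars), sorted by median; dashed lines mark 2-fold. Ribosomal protein genes (1.47) and tRNA genes (1.10) have medians past 2-fold, and the Pho4 target list has 0.01.

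The targets of Pho4, which as a list had lower signals at ample phosphate, stood on the whole at the median gene at 0.01 mM against 0 mM. Of 24 in the list 20 were kept, and all 20 were above background on both arrays. Their median relative difference was 0.01 (-0.25 as deposited), from -1.09 to 0.46, with 0 at least 2-fold higher and 1 at least 2-fold lower. For the factor itself, PHO4 had 44.8 at 0.01 mM and 62.7 at 0 mM (-0.22), and the marker TRP1 had 62.3 at 0.01 mM and 110 at 0 mM (-0.56).

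The transporters parted from one another. PHO84, the high-affinity proton-coupled phosphate transporter, had 1157 at 0.01 mM and 1370 at 0 mM (0.02, but -0.60 with quantile normalization). PHO89, the sodium-coupled one, had 199 at 0.01 mM and 507 at 0 mM (-1.09, or 2.12-fold lower), the 1 target past 2-fold. At 0.1 mM PHO84 still had 172 and PHO89 had 9.69, below background. GIT1, which imports glycerophosphoinositol, had 221 at 0.01 mM and 210 at 0 mM (0.33), and PHO86, needed for Pho84 to leave the endoplasmic reticulum, 249 at 0.01 mM and 217 at 0 mM (0.46). SPL2, which holds back low-affinity uptake, had 209.6 at 0.01 mM and 209.8 at 0 mM (0.26).

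Phosphatase and polyphosphate genes of the list lay within 2-fold of the median gene. The secreted acid phosphatase gene PHO5 had 1222 at 0.01 mM and 1418 at 0 mM (0.05), the vacuolar alkaline phosphatase gene PHO8 119 at 0.01 mM and 168 at 0 mM (-0.24), and the nucleotidase gene PHM8 379 at 0.01 mM and 508 at 0 mM (-0.16). The 4 genes of the vacuolar polyphosphate polymerase complex, VTC1, VTC2, VTC3 and VTC4, had 0.38, 0.01, -0.05 and -0.10, VTC1 having 1653 at 0.01 mM and 1521 at 0 mM. The polyphosphatase genes PPN1 and DDP1 had 0.46 and 0.24, and PPX1, an exopolyphosphatase outside the list and named after its value was seen, had 165 at 0.01 mM and 91.6 at 0 mM (1.11). The glycerol-3-phosphatase gene GPP2 had -0.03, the glycerophosphodiesterase gene GDE1 -0.44 (91.7 at 0.01 mM and 149 at 0 mM), PHM6 -0.35, the mannosyltransferase gene KRE2 -0.26 and PHM7 0.33 at signals of 13.0 at 0.01 mM and 12.4 at 0 mM, just above background. Signals at 0.1 mM were 28.0 for PHO5, 49.0 for PHM8 and 2.81 for SPL2. Over the list the relative median against 0 mM was 0.01, -2.19, -2.20 and -2.29 for 0.01, 0.1, 1 and 10 mM.

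For phosphate signalling and uptake of low affinity, the 12 genes kept had a median of 0.06 and 1 was at least 2-fold lower, GTR1, a GTPase of the TORC1 activating complex, with 70.7 at 0.01 mM and 181 at 0 mM (-1.09). The kinase gene PHO85 had 181 at 0.01 mM and 169 at 0 mM (0.36), its inhibitor gene PHO81, itself a Pho4 target, 188 at 0.01 mM and 177 at 0 mM (0.35), and the inositol hexakisphosphate kinase gene KCS1 99.2 at 0.01 mM and 169 at 0 mM (-0.51).

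Most stress genes lay within 2-fold of the median gene, with a few well below it. The 46 genes under Msn2 and Msn4 had a median of -0.21, 0 at least 2-fold higher and 4 at least 2-fold lower (2.61% over all genes). GRE1, a hydrophilin induced by drying and starvation, had 172 at 0.01 mM and 748 at 0 mM (-1.86). CTT1, cytosolic catalase, had 47.6 at 0.01 mM and 167 at 0 mM (-1.55), the 6-phosphogluconate dehydrogenase gene GND2 126 at 0.01 mM and 320 at 0 mM (-1.09), and the cell wall gene SPI1 177 at 0.01 mM and 440 at 0 mM (-1.05). HSP12, a membrane-stabilising hydrophilin, had 2864 at 0.01 mM and 2070 at 0 mM (0.73, but 0.10 with lowess on mean signal), so hydrophilins lay on both sides. Among 25 heat shock chaperones the median was -0.25, and 2 were at least 2-fold lower (2.61% over all genes), the inducible Hsp70 gene SSA3 (38.0 at 0.01 mM and 166 at 0 mM, -1.87) and BTN2, a sorting factor for misfolded proteins (39.99 at 0.01 mM and 114 at 0 mM, -1.25). HSP26, named after its value was seen, had 905 at 0.01 mM and 1121 at 0 mM (-0.05). At 0.1 mM the stress list had a median of -2.91 relative to 0 mM, and GRE1 had 11.0, below background.

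Hexose transporter genes were among those farthest below the median gene. Of 8 kept, 3 were at least 2-fold lower (2.61% over all genes): HXT4 (36.8 at 0.01 mM and 150 at 0 mM, -1.77), HXT1 (142 at 0.01 mM and 535 at 0 mM, -1.66) and HXT5 (74.9 at 0.01 mM and 237 at 0 mM, -1.40). All 3 stood among the 50 lowest of the 4456 ranked genes. HXT3, named after its value was seen, had 1508 at 0.01 mM and 1672 at 0 mM (0.11), and the list's median was -0.56. HXT1, the low-affinity transporter, had 490, 393 and 397 at 0.1, 1 and 10 mM, whereas HXT5, a transporter of slow-growing cells, had 12.4, 8.53 and 8.51. Of 29 genes for glucose sensing and repression, a list added after values were seen and so chosen in part for them, 7 were at least 2-fold lower (2.61% over all genes) and 0 higher, with a median of -0.35. They were REG2 (phosphatase regulator, -1.72), MTH1 (repressor of HXT genes, 24.0 at 0.01 mM and 85.1 at 0 mM, -1.57), RGS2 (-1.52), MIG1 (glucose repressor, 12.8 at 0.01 mM and 41.0 at 0 mM, -1.42), SKS1 (-1.31), MIG3 (-1.26) and PFK26 (6-phosphofructo-2-kinase, -1.12), several of them close to background at 0.01 mM. Among 26 glucose-repressed genes the median was -0.21 and 3 were at least 2-fold lower (2.61% over all genes), REG2, HXT5 and PCK1 (the gluconeogenic enzyme, 32.9 at 0.01 mM and 85.9 at 0 mM, -1.12). In glycolysis 20 of 21 genes were within 2-fold with a list median of 0.14 (-0.12 as deposited), PGK1 with 2299 at 0.01 mM and 1444 at 0 mM (0.93) being the highest. PDC6, a minor pyruvate decarboxylase, was below background at 0.01 mM, 8.85 at 0.01 mM against 55.0 at 0 mM, and at least 4.02-fold lower.

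The 12 genes farthest below the median gene among those above background on both arrays came from varied functions. MOH1, linked to survival in stationary phase, had 30.5 at 0.01 mM and 195 at 0 mM, 5.33-fold lower and the lowest of the 4456. NCA3, linked to mitochondrial gene expression, had 33.9 at 0.01 mM and 161 at 0 mM (-1.99), and PMA2, the minor plasma membrane proton pump, 18.1 at 0.01 mM and 82.8 at 0 mM (-1.93). YOR302W, the leader reading frame upstream of the arginine gene CPA1, had 43.8 at 0.01 mM and 192 at 0 mM (-1.88), and the GTPase gene RHO5 29.1 at 0.01 mM and 125 at 0 mM (-1.84). RPI1, a regulator linked to Ras, had 13.2 at 0.01 mM and 52.3 at 0 mM (-1.73), and the polarity kinase gene KIN2 15.1 at 0.01 mM and 64.8 at 0 mM (-1.84). Further probe sets of KIN2 were below background on both arrays, and with them included at background the gene's difference was -0.20. With background at the 60th percentile the relative difference was -1.09 for PMA2, -0.43 for RPI1 and -0.73 for KIN2. SSA3, GRE1, HXT4, REG2 and HXT1, described above, complete the 12.

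At higher doses these genes split. MOH1 had 8.46, 10.4 and 15.1 at 0.1, 1 and 10 mM, SSA3 had 17.0, 13.4 and 11.3, and NCA3 had 18.5, 11.1 and 15.4, all still lower than at 0.01 mM. KIN2 had 61.1, 45.0 and 53.0, YOR302W had 112.8, 80.5 and 115.5, and HXT1 had the values above, all higher than at 0.01 mM. SUP35, with 142, 124 and 174, and ENP1, with 224, 185 and 242, had the same course. Genes below background at 0.01 mM and highest at 0 mM were, besides PDC6, the spore wall gene SPS100 (8.70 at 0.01 mM and 43.7 at 0 mM, at least 3.19-fold lower), YML131W (10.9 at 0.01 mM and 36.8 at 0 mM, at least 2.69-fold) and the neddylation gene DCN1 (11.3 at 0.01 mM and 35.0 at 0 mM, at least 2.56-fold).

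**Figure D5:**
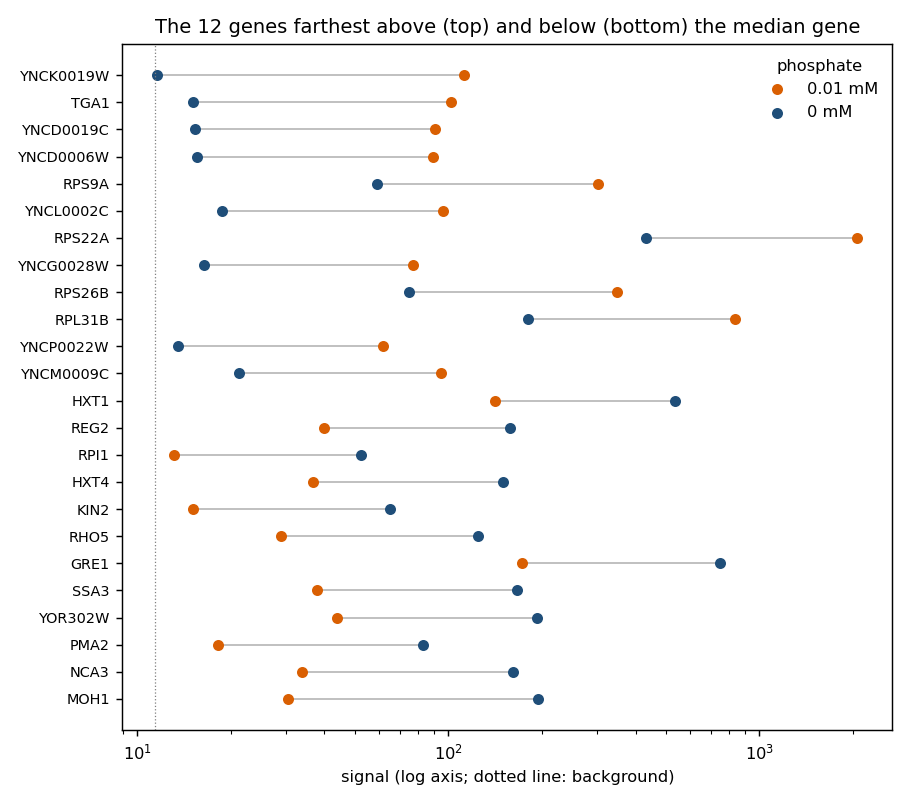
Signal (log axis) at 0.01 mM (orange) and 0 mM (blue), 1 array each, of the 12 genes farthest above and the 12 farthest below the median gene among genes above background on both arrays; the dotted line is the background of 11.4. The upper 12 are 8 tRNA genes and 4 ribosomal protein genes, and the 8 tRNA genes have signals of at most 21.2 at 0 mM.

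Genes of the G1 to S transition stood above the median gene as a list. Of 38 kept, 37 lay above it, with a median of 0.66 (1.58-fold), 6 at least 2-fold higher (3.78% over all genes) and 0 lower. Of the 38, 3 were above background at 0.01 mM only and so had to be higher there. The 35 measured on both arrays had a median of 0.68, and 6 were at least 2-fold higher (3.61% of all genes measured on both). A further 5 on the array were below background on both. The replication clamp gene POL30 had 114 at 0.01 mM and 48.9 at 0 mM (1.49), TOS6, a putative cell wall protein gene, 257 at 0.01 mM and 123 at 0 mM (1.32), POL1, the DNA polymerase alpha catalytic subunit, 52.7 at 0.01 mM and 25.5 at 0 mM (1.31), and GIC2, an effector of Cdc42 in budding, 108 at 0.01 mM and 54.0 at 0 mM (1.26). SVS1 (1.17) and the G1 cyclin gene CLN2 (53.7 at 0.01 mM and 31.8 at 0 mM, 1.01), named after their values were seen, complete the 6. The list's median relative to 0 mM was 0.66, 0.46, 0.54 and 0.54 at 0.01, 0.1, 1 and 10 mM. The 4 histone genes kept had a median of 0.83 and HTB2 was 2.49-fold higher, with 183 at 0.01 mM and 87.9 at 0 mM.

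Mitotic and early G1 genes showed no such shift, with a median of -0.13 over 33 genes. Of these, 3 were at least 2-fold lower (2.61% over all genes): the filamentation factor gene TEC1 (32.9 at 0.01 mM and 89.0 at 0 mM, -1.18), the daughter-specific repressor gene ASH1 (87.2 at 0.01 mM and 229 at 0 mM, -1.14) and the G1 cyclin gene CLN3 (48.2 at 0.01 mM and 117 at 0 mM, -1.03). KIN3, a mitotic kinase, was at least 2.06-fold higher, with 19.7 at 0.01 mM against 10.4 at 0 mM, below background at 0 mM. For the spindle and kinetochore, a list of 21 kept genes added after values were seen, all values lay above the median gene with a median of 0.57. Of the 21, 1 was above background at 0.01 mM only and so had to be higher there. Another 2 were above it at 0 mM only and had the lower deposited signal at 0.01 mM. Their values are bounds, so their place above the median gene is not settled. The 18 measured on both arrays had a median of 0.65. In this list 5 were at least 2-fold higher (3.78% over all genes), DUO1 most (35.8 at 0.01 mM and 16.3 at 0 mM, 1.39), followed by STU2, DAD1, IPL1 and BIM1.

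The list of cell wall genes had a median of 0.19 over 38 (-0.07 as deposited), with 4 at least 2-fold higher (3.78% over all genes) and 0 lower. These were the mannoprotein genes TIR2 (43.9 at 0.01 mM and 16.7 at 0 mM, 1.65), TIR3 (64.3 at 0.01 mM and 33.6 at 0 mM, 1.20) and CIS3 (1187 at 0.01 mM and 698 at 0 mM, 1.03), and SCW10, a putative glucanase (134 at 0.01 mM and 73.0 at 0 mM, 1.13). Wall genes outside the list, named after their values were seen, went both ways. TIP1 (423 at 0.01 mM and 1035 at 0 mM, -1.03) and WSC3 (-1.29) were lower, as was SPI1 above, while WSC2 (1.01) and WSC4 (1.05) were higher. Of 50 genes for GDP-mannose and protein glycosylation, a list added after values were seen, 6 were at least 2-fold higher (3.78% over all genes) and 0 lower, with a median of 0.21 (-0.05 as deposited). They include 3 successive enzymes that make GDP-mannose, PMI40 (388 at 0.01 mM and 216 at 0 mM, 1.10), SEC53 (1028 at 0.01 mM and 521 at 0 mM, 1.24) and PSA1 (1253 at 0.01 mM and 620 at 0 mM, 1.28). The others were PMT4, an O-mannosyltransferase (97.6 at 0.01 mM and 46.8 at 0 mM, 1.32), ALG14 (117 at 0.01 mM and 60.2 at 0 mM, 1.22) and ALG5 (101 at 0.01 mM and 58.1 at 0 mM, 1.05).

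In the remaining metabolic lists at most 2 members passed 2-fold in the same direction (over all genes 3.78% higher and 2.61% lower). The 57 amino acid genes under Gcn4 had a median of -0.08 and 0 past 2-fold, from ARG3 at -0.94 (40.3 at 0.01 mM and 92.4 at 0 mM) to TRP2 at 0.98 (242 at 0.01 mM and 147 at 0 mM). In sulfate assimilation 2 of 28 were at least 2-fold lower, CYS4 (133 at 0.01 mM and 359 at 0 mM, -1.17) and the methionine permease gene MUP1 (77.8 at 0.01 mM and 197 at 0 mM, -1.08), and 1 higher, the S-adenosylmethionine synthetase gene SAM2 (267 at 0.01 mM and 152 at 0 mM, 1.07). Ergosterol had 1 of 26 lower, the squalene synthase gene ERG9 (56.3 at 0.01 mM and 151 at 0 mM, -1.16), iron uptake 1 of 25, AFT2 (12.6 at 0.01 mM and 34.9 at 0 mM, -1.21), and the proteasome 1 of 33, SCL1 (93.0 at 0.01 mM and 246 at 0 mM, -1.14). Among phospholipid genes EPT1 (12.3 at 0.01 mM and 34.4 at 0 mM, -1.22, but -0.59 without the background filter) and GPT2 (below background at 0.01 mM, at least 2.11-fold) were lower. The thiamine list had 1 of 16 higher, PET18 (41.2 at 0.01 mM and 20.5 at 0 mM, 1.27). Nuclear-encoded respiratory chain genes had a median of 0.24 over 38 (-0.02 as deposited) and vacuolar proton pump genes 0.37 over 16, each with 0 past 2-fold. For nitrogen catabolite repression, purine synthesis, zinc and the citric acid cycle the medians lay between -0.21 and 0.07, also with 0 past 2-fold. Of 18 mitochondrially encoded genes 16 were below background on both arrays. The 2 kept were COX1 (25.9 at 0.01 mM and 74.1 at 0 mM, -1.26, but -0.35 without the background filter) and OLI1 (-0.62).

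Among regulators of growth, RAS1, a GTPase upstream of protein kinase A, had 49.2 at 0.01 mM and 137 at 0 mM (-1.22), and HMO1, a chromatin protein at ribosomal DNA and ribosomal protein genes, had 301 at 0.01 mM and 163 at 0 mM (1.15). TOD6, a repressor of ribosome biogenesis genes, had 47.9 at 0.01 mM and 108 at 0 mM (-0.91), and MSN2 had 21.6 at 0.01 mM and 44.9 at 0 mM (-0.79). The list of 26 regulators had a median of -0.09.

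Mating type markers were those of an a-type strain at both doses. The pheromone genes MFA2 and MFA1 had 1870 and 634 at 0.01 mM, against 1559 and 508 at 0 mM, and the receptor gene STE2 had 50.3 at 0.01 mM and 82.4 at 0 mM. Of 4 alpha-specific genes 2 were below background on both arrays, and MF(ALPHA)1 (11.0 at 0.01 mM and 14.8 at 0 mM) and SAG1 (9.75 at 0.01 mM and 22.3 at 0 mM) were above it at 0 mM only. Of 12 meiosis genes 9 were below background on both arrays.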

How the data were processed

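The authors deposited linear intensity values, 1 for each probe set and array, from biotinylated cRNA (6 ug cDNA, per the labels' protocols). MAS5 made them, per the submitters' processing notes. Its version and scaling target are not given here. With 1 array per dose, the number of arrays limits the precision and no test between doses was possible. No value column was left out.

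Probe sets were named through the platform annotation with symbols updated to RefSeq R64: 6504 of 9335 named 1 gene and 328 several, while the annotation did not list 2503, including 60 array controls. Gene lengths, introns included, are from the same RefSeq table. Values were floored at the 40th percentile, log2 was taken, probe sets of a gene were averaged, and differences of 0.01 mM minus 0 mM were centred on the median of 4864 genes (Python 3.11.15, pandas 2.3.3, numpy 2.4.6). The steps were tested on simulated data.

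The members, the 50 gene lists and the rules were chosen with earlier results of these data known, and 4 lists were added after values were seen. Genes were named by rule: PHO4, TRP1 and measured Pho4 targets; the 12 farthest above and the 12 farthest below the median gene among genes above background on both arrays; the 4 brightest genes below background on the other array, in each direction; and up to 4 members of each other list, with any member past 2-fold against its list. Other genes are marked in the text. tRNA and snoRNA genes were found by RefSeq biotype. Alternatives were other scalings, floors, filters and ways to combine probe sets. Promoter sequences were not analysed here.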

Additional observations from a re-analysis of the deposited data

Results flagged for a closer look

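Probe sets that match several genes were used in no comparison, and they held a signal of the same kind. Of 59 kept probe sets whose listed genes are all ribosomal protein genes, 54 stood at least 2-fold above the median gene at 0.01 mM and 0 at least 2-fold below it, with a median relative difference of 1.47. Of the 176 other kept probe sets of several genes, 3 were at least 2-fold higher and 17 at least 2-fold lower, with a median of -0.05. These probe sets cannot be assigned to 1 gene, and the ribosomal protein ones cover duplicate copies of genes described in the report.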

How the results depend on the processing

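No paired analysis was possible because each dose has 1 array, and for the same reason no replicate could be left out. With no centring on the median gene, 107 genes were at least 2-fold higher and 349 lower at 0.01 mM, and the list medians were 1.21 for ribosomal proteins, -0.64 for biogenesis, -0.25 for Pho4 targets, -0.47 for stress genes, 0.84 for tRNA, 0.44 for snoRNA and 0.40 for G1/S genes. Quantile normalization gave 1.30 for ribosomal proteins, -0.22 for Pho4 targets and -0.36 for stress genes, and lowess on mean signal gave 1.16, -0.18 and -0.34. The sign of the Pho4 target median thus depended on the scaling. A pseudocount in place of the floor left 51 genes lower, with 0.91 for tRNA and 0.57 for snoRNA. A floor at the 20th percentile gave 1.27 for tRNA, and one at the 60th left 67 genes lower. Without a filter the medians were 1.36 for ribosomal proteins, -0.0900 for Pho4 targets, -0.31 for stress, 0.72 for tRNA, 0.15 for snoRNA and 0.45 for G1/S genes. Plain-suffix probe sets only, an alternative chosen after seeing the data, gave 119 genes higher, 1.37 for ribosomal proteins and 1.78 for tRNA over 2 genes. Among 2347 values of the 219 named genes under alternatives, 2287 moved by less than the SD of 0.60 between probe sets and 4 at least 2-fold values turned sign, all with the floor at the 60th percentile: DCN1 at 0.15, YML131W at 0.0809, AFT2 at 0.16 and EPT1 at 0.18. The 4 genes are dim, and the higher floor replaces signals as low as theirs. The same floor gave -0.50 for PDC6, -0.17 for SPS100, -0.09 for TIF4631, 0.59 for TIR2 and 0.50 for PET18. Dim genes near the background are among the least certain values of the report. Some bright genes moved with the scaling: quantile normalization gave -0.60 for PHO84, 0.22 for PGK1 and 0.26 for HYP2, and lowess gave 0.10 for HSP12.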
